A study of Homo sapiens with 18 samples.

Results

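Autophagy receptors and core autophagy genes were followed in PANC-1 cells, an established human cell line from a pancreatic ductal carcinoma, by sequencing of polyadenylated RNA. The set is a list of gene symbols, SQSTM1, NBR1, MAP1LC3B, GABARAPL1, GABARAPL2, ULK1, BECN1, ATG5, WIPI1 and ATG16L1, which makes 10 of the 26485 genes listed. It was listed by function and not by a threshold on measured values. RNA was taken 72 h after transfection with an siRNA, either the control or one directed at PKR (named PKR siRNA 1 and PKR siRNA 2), and 72 h after addition of DMSO, 400 nM C16 or 800 nM C16. PKR, encoded by EIF2AK2, is a kinase that binds double-stranded RNA and phosphorylates the translation initiation factor eIF2α. A small interfering RNA (siRNA) directs cleavage of a matching transcript, C16 is a small-molecule inhibitor of PKR, and DMSO is the solvent used as its control. Each of the 6 groups held 3 libraries, the siRNA groups (9 libraries) and the DMSO and C16 groups (9 libraries) formed separate runs with separate normalization, and values were compared only within a run. All groups came from 1 cell line.

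In autophagy a cup-shaped membrane grows around cytoplasmic cargo, closes into an autophagosome and fuses with the lysosome, where the content is degraded. The ULK1 kinase complex starts the process, a lipid kinase complex built around BECN1 marks the membrane with a phosphoinositide, and WIPI proteins bind that lipid. ATG5, joined to ATG12 and bound to ATG16L1, then helps to attach small ubiquitin-like ATG8 proteins, among them LC3B (MAP1LC3B), GABARAPL1 and GABARAPL2, to the membrane. Receptors such as p62 (SQSTM1) and NBR1 hold ubiquitinated cargo with one end and ATG8 proteins with another, and are themselves degraded with it. Transcript levels measure neither the lipid-bound form of LC3B nor the flux of cargo, and autophagy is known to be highly active in pancreatic carcinoma cells.

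The starts of 3 of these genes are shown because ULK1 fell with both PKR siRNAs, and GABARAPL1 and MAP1LC3B rose in some of the conditions below. The sequences are from RefSeq on GRCh38.p14, plus strand. That of GABARAPL1 was trimmed to leave out annotated exons, and that of ULK1 needed no trimming. The ULK1 stretch is chr12:131894372-131894621, directly before the RefSeq start, the GABARAPL1 stretch is chr12:10212754-10212835 and ends 41 bases before it, and the MAP1LC3B stretch is chr16:87392282-87392306, before the RefSeq start but inside the exon of a longer GENCODE transcript. Capitals mark a match to TGACNNNGC, the core letters of the antioxidant element bound by NRF2.
ULK1: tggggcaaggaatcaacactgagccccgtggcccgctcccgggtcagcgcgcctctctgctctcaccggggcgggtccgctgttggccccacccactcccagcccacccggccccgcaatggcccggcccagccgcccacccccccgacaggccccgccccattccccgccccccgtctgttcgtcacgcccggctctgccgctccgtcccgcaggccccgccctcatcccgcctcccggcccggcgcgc
GABARAPL1: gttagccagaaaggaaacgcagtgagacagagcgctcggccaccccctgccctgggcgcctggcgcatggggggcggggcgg
MAP1LC3B: gagtcaccTGACCAGGCtgcgggct
The ULK1 stretch was 78% G or C and the GABARAPL1 stretch 72%. The 250 bases before each RefSeq start, 14 windows for the 10 genes, were searched on both strands for TGACNNNGC, for CACGTG (the E-box core within the site of TFEB) and for TGATGNAA (a core of the composite element of ATF4 and C/EBP proteins). The MAP1LC3B match, 46 to 38 bases before the start, was the 1 match found. Over 35116 promoter windows of that length, 10.9% held TGACNNNGC, 6.34% held CACGTG and 3.14% held TGATGNAA. A match is a description of letters and not of a bound site.

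Read totals per library ran from 1512940 to 1873906 in the siRNA run and from 894145 to 1474308 in the C16 run. The targeted transcript EIF2AK2 had 95.5, 93.5 and 103 TMM-normalized read counts in control siRNA, 10.0, 13.6 and 9.65 in PKR siRNA 1, and 7.96, 8.58 and 9.41 in PKR siRNA 2, log2 changes of -3.04 and -3.35 (SE 0.25 each). With C16 or DMSO, EIF2AK2 lay between 39.2 and 54.1 normalized counts in all 9 libraries. All 4 keratin markers of PANC-1 cells were detected, and their summed normalized count ranged from 5238 to 5308 in control siRNA, 3030 to 3259 in PKR siRNA 1, 9512 to 10173 in PKR siRNA 2, 7116 to 7531 in DMSO, 5991 to 6495 in C16 400 nM and 5117 to 5642 in C16 800 nM. The keratin sums thus moved with the groups, and their part in the results was not tested. The single keratins did not all move alike. KRT7 added little, with a mean of 18.2 in control siRNA and 4.65 in PKR siRNA 2, where the sum was highest. Over DMSO, 400 nM and 800 nM, KRT18 averaged 1440, 1505 and 1444, while KRT19 averaged 1582, 841 and 562. Of 9 markers of leukocytes, endothelium, acinar and endocrine cells, 6 to 8 were at 0 in every library of a group, and their sum never passed 4.86.

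To ask how PKR depletion or C16 altered these transcripts, each treated group was compared with its own control by limma on log2(normalized count + 1). A gene was said to rise or fall where the Benjamini-Hochberg adjusted p over all genes tested was under 0.05 and the change was over 1.5-fold. Of the 10 genes, 7 rose or fell in at least 1 of the 4 comparisons with a control, and SQSTM1, GABARAPL2 and ATG5 in none, while 49.9% of the 9821 genes tested in both runs passed in at least 1. MAP1LC3B rose in 3 of the 4, the most for any of the 10, and ULK1, NBR1 and ATG16L1 passed in 2 each, where 22.2% of all genes passed in at least 2 and 7.71% in at least 3. Under PKR siRNA 1, 0 of the 10 rose and 2 fell, where 21.1% of the 10593 genes tested passed (8.53% raised and 12.6% lowered). Under PKR siRNA 2, 3 rose and 2 fell, where 23.5% of all genes passed (10.8% raised and 12.8% lowered). C16 at 400 nM raised 1 and lowered 1, where 12.5% of 9963 genes passed (7.08% raised and 5.45% lowered). C16 at 800 nM raised 2 and lowered 1, where 25.7% passed (11.6% raised and 14.1% lowered). By the adjusted p alone, at any fold, 3, 9, 3 and 5 of the 10 passed in these comparisons, against 45.0%, 47.3%, 26.5% and 44.9% of all genes. The median log2 change of the 10 was -0.07, -0.18, 0.12 and 0.00 in the same order, and that of all genes tested was -0.01, -0.01, 0.00 and 0.00. The libraries of the compared groups did not overlap for 6, 9, 4 and 5 of the 10 genes, while this held for 51.7%, 54.3%, 39.6% and 51.8% of all genes tested. Comparisons within a run share their control libraries. Since the RNA is from bulk cells, a lower value cannot be told apart between less RNA per cell and fewer expressing cells.

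**Figure D1:**
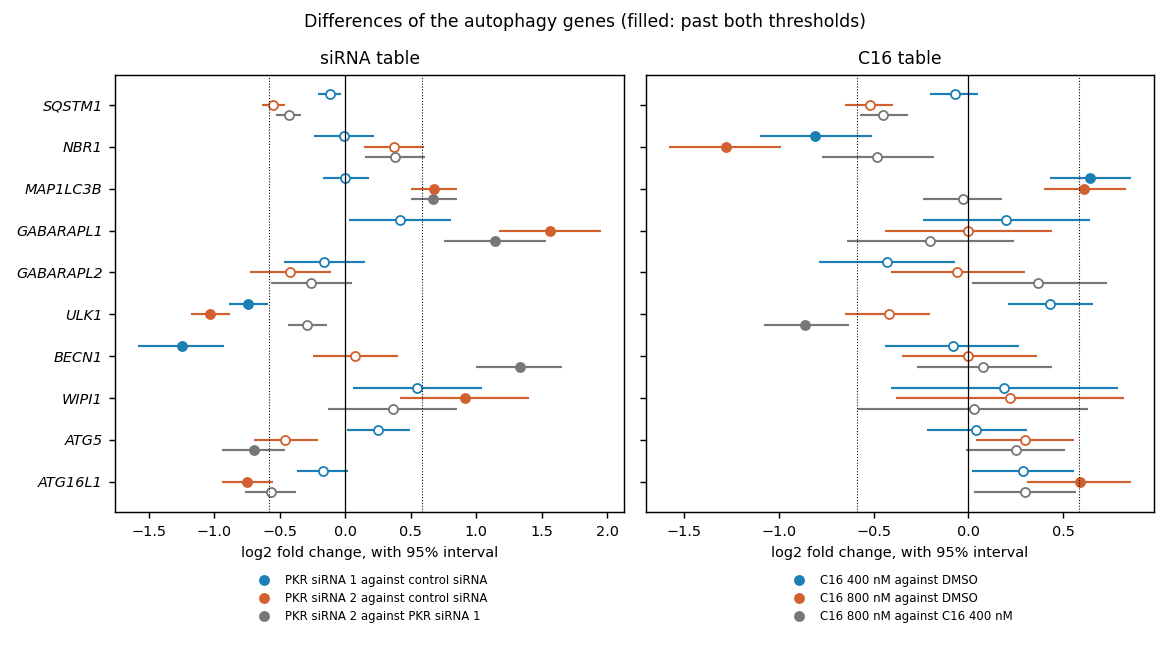
Log2 fold change of each of the 10 genes against its own control and between the treated groups of a run (x axis). Points have 95% confidence intervals from limma, and filled points passed both limits. The siRNA comparisons and C16 comparisons are in separate panels, with dotted lines at a 1.5-fold change. ULK1 lies left of 0 for both siRNAs, at -0.74 and -1.03, and MAP1LC3B lies right of 0 at 0.64 and 0.61 for the C16 doses.

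The cargo receptor p62, encoded by SQSTM1 (chr5:179806388-179838077, plus strand, hg38), binds ubiquitin chains and also holds the NRF2 inhibitor KEAP1. Its normalized counts were 2179, 1906 and 2096 in control siRNA, 1907, 1946 and 1832 in PKR siRNA 1, and 1396, 1398 and 1415 in PKR siRNA 2. The PKR siRNA 2 libraries were all below the lowest control library, whereas PKR siRNA 1 and control overlapped. The log2 change was -0.55 (SE 0.05, adjusted p = 2.76e-17) with PKR siRNA 2, a fold of 0.682 that stayed under the 1.5-fold limit, and -0.12 (SE 0.05, adjusted p = 0.0318) with PKR siRNA 1. Without the second control library the PKR siRNA 2 change was -0.61 and passed the limit. In the C16 run SQSTM1 had 1018, 1014 and 990 normalized counts in DMSO, 944, 1023 and 905 in C16 400 nM, and 672, 707 and 725 in C16 800 nM. The 800 nM libraries lay below all others of that run. The log2 change was -0.52 (SE 0.06, adjusted p = 4.66e-10) at 800 nM, a fold of 0.696, and -0.07 (95% interval -0.20 to 0.05, adjusted p = 0.407) at 400 nM. Of the exon bases of SQSTM1, 21.7% are shared with MGAT4B and C5orf45 on the opposite strand. How reads there were counted depends on the strand setting, which is not known. MGAT4B, a glycosyltransferase gene, averaged 470 ± 12 (SD), 325 ± 13 and 425 ± 29 normalized counts in control, PKR siRNA 1 and PKR siRNA 2, and 285 ± 16, 232 ± 18 and 169 ± 7.2 in DMSO, 400 nM and 800 nM (n = 3 each).

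NBR1 (chr17:43170471-43211689, plus strand) encodes a receptor that acts with p62 on ubiquitinated aggregates and on peroxisomes. It had 106, 131 and 101 normalized counts in DMSO, 57.4, 60.0 and 74.5 in C16 400 nM, and 43.4, 52.4 and 41.0 in C16 800 nM. Each dose group lay wholly below DMSO, and the 800 nM group wholly below the 400 nM group. NBR1 fell at 400 nM (log2 change -0.81, SE 0.15, adjusted p = 2.12e-05) and at 800 nM (-1.28, SE 0.15, adjusted p = 1.41e-10). The step between the doses was -0.48 (SE 0.15, adjusted p = 0.021) and under 1.5-fold. After siRNA, NBR1 had 98.6, 95.6 and 101 normalized counts in control, 97.8, 91.6 and 103 in PKR siRNA 1, and 120, 138 and 124 in PKR siRNA 2. The PKR siRNA 2 libraries were the 3 highest of the run, with a log2 change of 0.37 (SE 0.12, adjusted p = 0.00538), a fold of 1.29. The PKR siRNA 1 change was -0.01 (95% interval -0.24 to 0.22, adjusted p = 0.947).

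**Figure D2:**
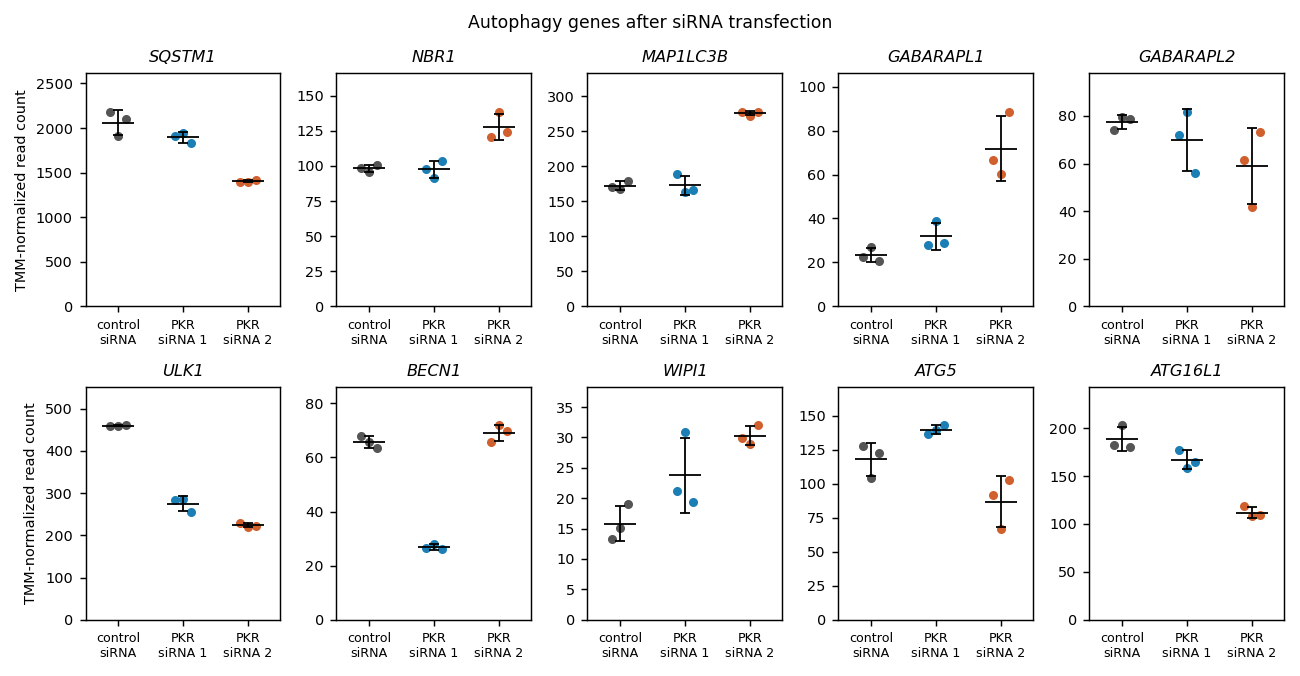
TMM-normalized read count of each of the 10 genes in the 9 siRNA libraries (points, y axis from 0 in each panel), with the group mean as a long bar and the SD as whiskers (n = 3). The 3 control values of ULK1 lie between 459 and 461, above every PKR siRNA library, and BECN1 is low in PKR siRNA 1 alone.

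Among the ATG8 genes, MAP1LC3B (chr16:87392195-87404774, plus strand) encodes LC3B, the protein most used to mark autophagosomes. It had 171, 168 and 179 normalized counts in control siRNA, 189, 163 and 167 in PKR siRNA 1, and 278, 272 and 277 in PKR siRNA 2. Control and PKR siRNA 1 overlapped, and PKR siRNA 2 stood apart above both. MAP1LC3B rose with PKR siRNA 2 (log2 change 0.68, SE 0.09, adjusted p = 6.86e-10, 1.60-fold), while the change with PKR siRNA 1 was 0.00 (95% interval -0.17 to 0.18, adjusted p = 0.984). In the C16 run it had 109, 110 and 93.7 normalized counts in DMSO, 177, 157 and 155 in C16 400 nM, and 167, 157 and 154 in C16 800 nM. All 6 C16 libraries were above all 3 DMSO libraries, and the doses overlapped. It rose by 0.64 on the log2 scale at 400 nM (SE 0.11, adjusted p = 3.27e-06) and by 0.61 at 800 nM (SE 0.11, adjusted p = 3.25e-06). Both changes lay close to the 1.5-fold limit. Without the third DMSO library they were 0.57 and 0.54 and no longer passed, and without the first library of the dose they were 0.58 and 0.58. Between doses the change was -0.03 (95% interval -0.24 to 0.18, adjusted p = 0.893). The near-identical copy MAP1LC3B2 averaged from 0.317 to 2.66 normalized counts per group.

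GABARAPL1 (chr12:10212890-10223125, plus strand) encodes an ATG8 protein of the GABARAP branch. It had 22.6, 26.9 and 20.9 normalized counts in control siRNA, 27.8, 39.0 and 29.0 in PKR siRNA 1, and 66.6, 60.1 and 88.4 in PKR siRNA 2. The lowest PKR siRNA 2 library was above the highest of the other groups. GABARAPL1 rose with PKR siRNA 2 by 1.56 on the log2 scale (SE 0.19, adjusted p = 1.50e-10, 2.95-fold), the largest change of the 10 genes among the 4 comparisons with a control. The PKR siRNA 1 difference was 0.42 (95% interval 0.03 to 0.81, adjusted p = 0.0709). Over the C16 run it lay between 23.6 and 34.6 normalized counts, with differences from DMSO of 0.20 at 400 nM (95% interval -0.24 to 0.64, adjusted p = 0.532) and 0.00 at 800 nM (-0.44 to 0.44, adjusted p = 0.998). The pseudogene copy GABARAPL3 was listed at 0 in all 18 libraries.

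GABARAPL2 (chr16:75566351-75577881, plus strand), also known as GATE-16, is a second member of that branch. It had 73.9, 79.5 and 78.7 normalized counts in control siRNA, 72.2, 81.6 and 56.0 in PKR siRNA 1, and 61.7, 41.8 and 73.4 in PKR siRNA 2. The PKR siRNA 2 group lay just below control, and PKR siRNA 1 overlapped with both. With PKR siRNA 2 the log2 change was -0.42 (SE 0.16, adjusted p = 0.0198), a fold of 0.746, and without the third library of that group it was -0.60 and passed both limits. DMSO libraries had 57.3, 59.1 and 47.2, C16 400 nM libraries 41.5, 40.4 and 38.3, and C16 800 nM libraries 62.5, 60.9 and 37.2. The third 800 nM library was the lowest of the run and the others of that group the highest. The difference from DMSO was -0.43 at 400 nM (95% interval -0.79 to -0.07, adjusted p = 0.0646) and -0.06 at 800 nM (-0.41 to 0.30, adjusted p = 0.821).

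The makeup of the 3 ATG8 transcripts among the 10 genes was set on one scale as normalized count per kilobase of exon. The sum leaves out GABARAP, an ATG8 gene outside the 10, so the shares are not those of all ATG8 transcripts. GABARAP alone had 189 ± 2.37 per kilobase in control siRNA and 135 ± 10.1 in DMSO. There the sum of the 3 was 165 ± 4.1 and 114 ± 11. MAP1LC3B made up 45.6% ± 1.5 (SD, n = 3) of their sum in control siRNA, 46.8% ± 5.0 in PKR siRNA 1 and 55.8% ± 5.8 in PKR siRNA 2. GABARAPL2 made up 46.8% ± 0.76, 42.7% ± 4.1 and 26.7% ± 4.5, and GABARAPL1 7.60% ± 0.98, 10.5% ± 1.6 and 17.5% ± 1.8, in that order. In DMSO, C16 400 nM and C16 800 nM the share of MAP1LC3B was 40.0% ± 0.59, 55.9% ± 2.0 and 51.3% ± 5.0, and that of GABARAPL2 47.8% ± 1.2, 31.4% ± 0.34 and 38.6% ± 6.1. Shares of one sum move together, and no separate test was made of them. The sum itself was 162 ± 16 in PKR siRNA 1, 218 ± 24 in PKR siRNA 2, 127 ± 6.2 at 400 nM and 137 ± 17 at 800 nM.

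**Figure D3:**
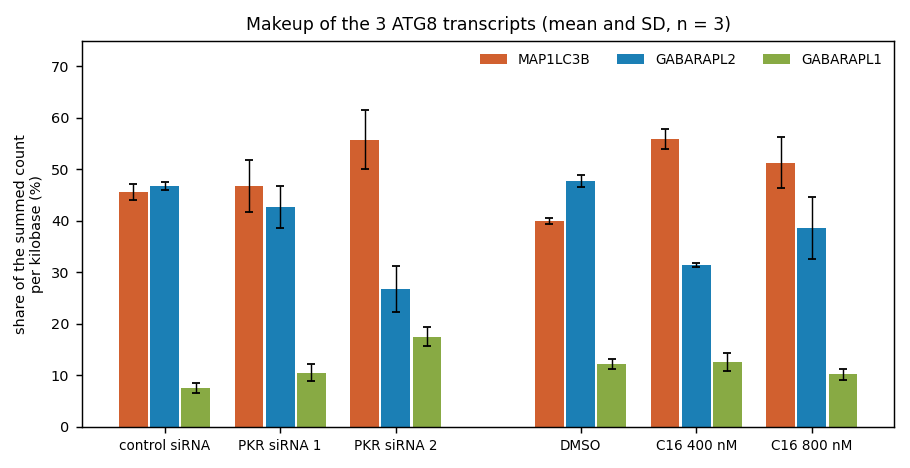
Share of MAP1LC3B, GABARAPL2 and GABARAPL1 in their summed normalized count per kilobase (y axis, %), as the mean of 3 libraries with the SD, for the 6 groups (x axis). MAP1LC3B and GABARAPL2 are close in control siRNA, at 45.6% and 46.8%, and apart in PKR siRNA 2, at 55.8% and 26.7%.

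ULK1 (chr12:131894734-131923162, plus strand) encodes the kinase that starts autophagosome formation and that AMPK and mTORC1 phosphorylate. It had 459, 460 and 461 normalized counts in control siRNA, 283, 287 and 256 in PKR siRNA 1, and 229, 221 and 223 in PKR siRNA 2. The 3 groups did not overlap, with control highest and PKR siRNA 2 lowest. ULK1 fell with PKR siRNA 1 (log2 change -0.74, SE 0.08, adjusted p = 1.07e-13, fold 0.599) and with PKR siRNA 2 (-1.03, SE 0.08, adjusted p = 1.88e-20, fold 0.489). It was the 1 gene of the 10 that passed in the same direction with both siRNAs. The share of all genes tested that did so was not counted. In the C16 run it had 122, 118 and 143 normalized counts in DMSO, 190, 178 and 152 in C16 400 nM, and 95.8, 96.3 and 92.6 in C16 800 nM. The 400 nM libraries lay above DMSO and the 800 nM libraries below it, with no overlap. The differences from DMSO were 0.43 at 400 nM (SE 0.11, adjusted p = 0.00228, fold 1.35) and -0.42 at 800 nM (SE 0.11, adjusted p = 0.00157, fold 0.746), both under 1.5-fold. Between the doses ULK1 fell by 0.86 on the log2 scale (SE 0.11, adjusted p = 6.19e-08).

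BECN1 (chr17:42810132-42824292, minus strand) encodes Beclin 1, the scaffold of the lipid kinase complex that nucleates the membrane. It had 67.8, 65.5 and 63.5 normalized counts in control siRNA, 26.7, 28.1 and 26.1 in PKR siRNA 1, and 65.7, 71.8 and 69.6 in PKR siRNA 2. PKR siRNA 1 stood far below both other groups, which overlapped. BECN1 fell with PKR siRNA 1 by 1.25 on the log2 scale (SE 0.16, adjusted p = 7.02e-10, fold 0.419), and with PKR siRNA 2 the difference was 0.07 (95% interval -0.25 to 0.40, adjusted p = 0.746). Over the C16 run it lay between 36.9 and 46.7 normalized counts, with differences from DMSO of -0.08 (-0.44 to 0.27, adjusted p = 0.773) and 0.00 (-0.35 to 0.36, adjusted p = 0.997). Of its exon bases 37.2% are shared with CNTD1 on the opposite strand, which averaged at most 1.99 normalized counts in any group. Whether PKR siRNA 1 pairs with the BECN1 transcript was not analysed here.

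WIPI1 (chr17:68421281-68457512, minus strand) encodes a propeller protein that binds the phosphoinositide on the growing membrane. It had the lowest level per kilobase of the 10 genes in both controls, with 10 to 34 reads in a library. Its normalized counts were 13.4, 15.0 and 19.0 in control siRNA, 21.1, 30.8 and 19.3 in PKR siRNA 1, and 29.8, 29.0 and 32.0 in PKR siRNA 2. Every PKR siRNA library was above every control library. WIPI1 rose with PKR siRNA 2 (log2 change 0.91, SE 0.25, adjusted p = 0.00142, 1.88-fold). For PKR siRNA 1 the difference was 0.55 (95% interval 0.06 to 1.04, adjusted p = 0.0626), and it was 0.68 without the third control library and 0.67 without the third PKR siRNA 1 library, both past the limits. The groups of the C16 run overlapped, between 10.6 and 25.8 normalized counts, and the intervals of the difference from DMSO, -0.41 to 0.79 at 400 nM and -0.38 to 0.82 at 800 nM, both reach past a 1.5-fold rise.

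ATG16L1 (chr2:233251571-233295674, plus strand) encodes the protein that places the ATG12 and ATG5 conjugate on the membrane. It had 183, 203 and 180 normalized counts in control siRNA, 178, 159 and 165 in PKR siRNA 1, and 118, 108 and 109 in PKR siRNA 2. PKR siRNA 1 lay just under control and PKR siRNA 2 well under both. ATG16L1 fell with PKR siRNA 2 (log2 change -0.75, SE 0.10, adjusted p = 1.05e-09, fold 0.596), and the difference with PKR siRNA 1 was -0.17 (95% interval -0.37 to 0.02, adjusted p = 0.151). In the C16 run it had 70.9, 64.8 and 57.9 normalized counts in DMSO, 93.6, 69.2 and 75.5 in C16 400 nM, and 101, 92.6 and 98.3 in C16 800 nM. The 800 nM group lay above DMSO without overlap. ATG16L1 rose at 800 nM by 0.59 on the log2 scale (SE 0.14, adjusted p = 3.33e-04), just past the 1.5-fold limit. The value was 0.51 without the third DMSO library, 0.56 without the first and 0.58 without the third 800 nM library, none of which passed. At 400 nM the difference was 0.29 (95% interval 0.02 to 0.56, adjusted p = 0.114). Its direction at 800 nM was thus the opposite of that with PKR siRNA 2, in runs that were not tested against each other.

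ATG5 (chr6:106184477-106325820, minus strand) encodes the partner that ATG12 is joined to. It had 127, 104 and 122 normalized counts in control siRNA, 137, 140 and 143 in PKR siRNA 1, and 91.5, 66.5 and 103 in PKR siRNA 2. Both siRNA groups were separate from control, PKR siRNA 1 above it and PKR siRNA 2 below. The log2 differences from control were 0.25 (95% interval 0.01 to 0.49, adjusted p = 0.0876) and -0.46 (SE 0.12, adjusted p = 0.00114, fold 0.729), and without the third PKR siRNA 2 library the latter was -0.58 and just passed the limit. The C16 differences were 0.04 at 400 nM (95% interval -0.22 to 0.31, adjusted p = 0.834) and 0.30 at 800 nM (0.04 to 0.56, adjusted p = 0.0563).

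**Figure D4:**
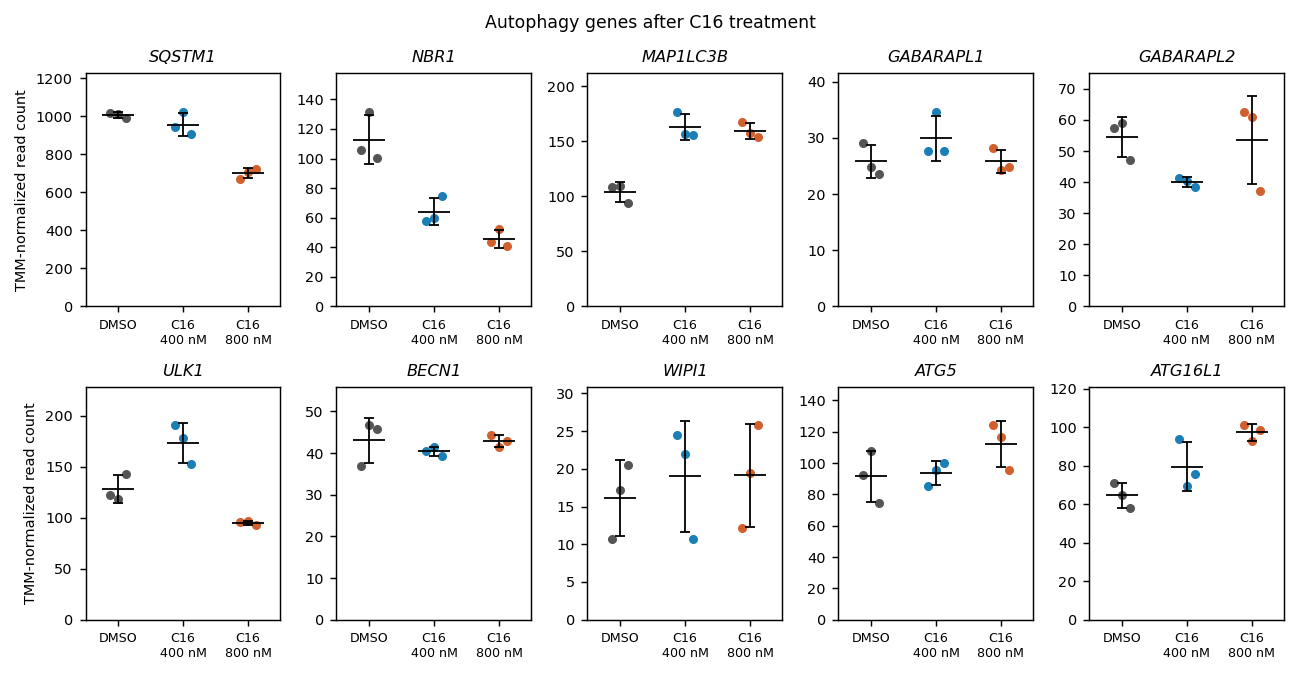
TMM-normalized read count of each of the 10 genes in the 9 libraries of the C16 run (points, y axis from 0 in each panel), with the group mean as a long bar and the SD as whiskers (n = 3). NBR1 steps down from DMSO over both doses, MAP1LC3B is above DMSO at both, and ULK1 is above DMSO at 400 nM and below it at 800 nM.

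Since both siRNAs target EIF2AK2, PKR siRNA 2 was also compared directly with PKR siRNA 1. Of the 10 genes, 4 differed past both limits (3 higher and 1 lower in PKR siRNA 2) against 31.7% of all genes (16.4% higher and 15.3% lower). By the adjusted p alone 8 passed against 57.0%, and the groups did not overlap for 8 against 60.6%. BECN1 was 1.33 higher on the log2 scale in PKR siRNA 2 (SE 0.16, adjusted p = 6.22e-11), GABARAPL1 1.14 higher (SE 0.19, adjusted p = 5.95e-07) and MAP1LC3B 0.67 higher (SE 0.09, adjusted p = 4.92e-10). ATG5 was lower, at -0.70 (SE 0.12, adjusted p = 6.61e-07), and at -0.52 without the second PKR siRNA 2 library, which was under 1.5-fold. ATG16L1 differed by -0.57 (SE 0.10, adjusted p = 7.51e-07), SQSTM1 by -0.43 (SE 0.05, adjusted p = 4.97e-13) and ULK1 by -0.29 (SE 0.08, adjusted p = 6.26e-04), all under 1.5-fold. ATG16L1 passed the limit, at -0.61, without the second PKR siRNA 1 library and also without the first PKR siRNA 2 library. For GABARAPL2 and WIPI1 the intervals of the difference were -0.57 to 0.05 and -0.13 to 0.85. Between the C16 doses 1 of the 10 genes, ULK1, differed past both limits, being lower at 800 nM, against 5.09% of all genes (1.13% higher and 3.95% lower). By the adjusted p alone 3 passed against 14.3%, and the groups did not overlap for 3 against 30.4%. SQSTM1 was lower at 800 nM than at 400 nM by a log2 difference of -0.45 (SE 0.06, adjusted p = 3.30e-07), under 1.5-fold.

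Levels of different genes were set side by side as normalized count per kilobase of exon. In control siRNA SQSTM1 was highest at 618 ± 42 (SD, n = 3), followed by ULK1 at 88.1 ± 0.17, GABARAPL2 at 77.2 ± 3.0 and MAP1LC3B at 75.4 ± 2.6, the last pair overlapping. ATG16L1 at 55.4 ± 3.7 came next, then ATG5 at 34.6 ± 3.6 and BECN1 at 30.6 ± 0.99, which overlapped, then NBR1 at 18.5 ± 0.46, GABARAPL1 at 12.6 ± 1.7 and WIPI1 at 8.20 ± 1.5. In DMSO SQSTM1 was again highest at 302 ± 4.6, and GABARAPL2 at 54.4 ± 6.4 overlapped with MAP1LC3B at 45.5 ± 3.9. ATG5, ULK1, NBR1, BECN1 and ATG16L1 followed between 26.9 and 18.9, each overlapping with the next, ahead of GABARAPL1 at 13.8 and WIPI1 at 8.38.

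For SQSTM1, GABARAPL1 and ULK1 the genes with the most similar pattern over the libraries were sought among 5276 genes, by the mean of Pearson's r over the 9 siRNA and over the 9 C16 libraries. These values are a description, since libraries of a group share a treatment. For SQSTM1 they were AXL (r = 0.95 and 1.00), RANGAP1 (0.97 and 0.92) and CLIC1 (0.92 and 0.95). For ULK1 they were PLEKHG2 (0.95 and 0.93), LARP1 (0.92 and 0.92) and MYOF (0.99 and 0.85), and for GABARAPL1 they included EEF1D (0.93 and 0.73) and CDC25B (0.95 and 0.65).

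The rest of the pathway was read from 94 further genes in 6 lists, of which 85 were tested in the siRNA run and 84 in the C16 run. Of these, 11 rose and 7 fell with PKR siRNA 1 (21.2%), 11 rose and 9 fell with PKR siRNA 2 (23.5%), 7 rose and 5 fell at 400 nM (14.3%) and 11 rose and 15 fell at 800 nM (31.0%). These shares stand beside 21.1%, 23.5%, 12.5% and 25.7% of all genes tested, and the median log2 changes of these genes were 0.00, 0.09, 0.02 and -0.05. Between the siRNAs 13 were higher and 13 lower in PKR siRNA 2 (30.6%), against 31.7% of all genes. Between the doses 1 was higher and 9 lower at 800 nM (11.9%), against 5.09% of all genes by limma. This count of 10 was 9 with edgeR and 3 with DESeq2 in place of limma.

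Among 18 other cargo receptors, 16 of them tested, 1 rose and 2 fell with PKR siRNA 1, 2 rose and 1 fell with PKR siRNA 2, and 0 rose and 3 fell at each C16 dose. Their median log2 changes were -0.17, 0.24, -0.12 and -0.12 (PKR siRNA 1, PKR siRNA 2, 400 nM and 800 nM). CCPG1, a receptor for the endoplasmic reticulum, rose with both siRNAs by 0.64 and 1.08 on the log2 scale (SE 0.25 each, adjusted p = 0.0269 and 1.47e-04). SEC62, which acts on recovery of the endoplasmic reticulum from stress, fell with PKR siRNA 1 (-0.67, SE 0.09, adjusted p = 1.52e-09). OPTN, a receptor for mitochondria and bacteria, fell with PKR siRNA 2 (-0.70, SE 0.10, adjusted p = 5.71e-09). CALCOCO1, a receptor for Golgi and endoplasmic reticulum, fell with PKR siRNA 1 (-0.65, SE 0.17, adjusted p = 0.00127), at 400 nM (-1.12, SE 0.27, adjusted p = 0.00125) and at 800 nM (-1.74, SE 0.27, adjusted p = 3.71e-07). With PKR siRNA 2 CALCOCO1 went the other way (0.56, SE 0.17, adjusted p = 0.00552), under 1.5-fold. It was higher in PKR siRNA 2 than in PKR siRNA 1 (1.21, SE 0.17, adjusted p = 6.29e-09).

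Of 13 other ATG8 and conjugation genes, 11 were tested in the siRNA run and 9 in the C16 run. Of these, 3 rose and 2 fell with PKR siRNA 1, 1 rose and 1 fell with PKR siRNA 2, 1 rose and 0 fell at 400 nM and 2 rose and 1 fell at 800 nM, with medians of -0.13, -0.01, 0.29 and 0.01 in that order. ATG4A, a protease that trims ATG8 proteins, rose with PKR siRNA 1 (1.36, SE 0.16, adjusted p = 9.26e-12), at 400 nM (0.85, SE 0.21, adjusted p = 0.00146) and at 800 nM (1.15, SE 0.21, adjusted p = 7.88e-06). ATG7, the activating enzyme for both ATG12 and ATG8 proteins, fell with PKR siRNA 1 (-0.93, SE 0.15, adjusted p = 3.19e-07) and PKR siRNA 2 (-1.71, SE 0.15, adjusted p = 1.90e-16). MAP1LC3A rose with PKR siRNA 2 (0.69, SE 0.29, adjusted p = 0.0394), with 12 to 19 reads per library in control siRNA and 20 to 30 in PKR siRNA 2. ATG16L2, a paralog of ATG16L1, fell with PKR siRNA 1 (-1.13, SE 0.32, adjusted p = 0.00243). It had 15 to 24 reads per library in control siRNA and 6 to 12 in PKR siRNA 1. GABARAP fell at 800 nM (-0.62, SE 0.13, adjusted p = 1.25e-04).

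Of 20 other genes of initiation and membrane supply, 19 were tested. Of these, 1 rose and 0 fell with PKR siRNA 1, 4 rose and 2 fell with PKR siRNA 2, 1 rose and 1 fell at 400 nM and 2 rose and 5 fell at 800 nM, with medians of 0.03, 0.18, 0.01 and -0.22. Rubicon, listed as KIAA0226 and a negative regulator of the lipid kinase complex, rose with PKR siRNA 1 (0.86, SE 0.10, adjusted p = 6.94e-11), at 400 nM (0.59, SE 0.13, adjusted p = 4.32e-04) and at 800 nM (0.63, SE 0.13, adjusted p = 8.82e-05). With PKR siRNA 2 its difference was 0.25 (SE 0.10, adjusted p = 0.0398), under 1.5-fold. KIAA0226 was lower in PKR siRNA 2 than in PKR siRNA 1 (-0.61, SE 0.10, adjusted p = 6.53e-07). The lipid transfer gene ATG2B rose with PKR siRNA 2 (1.02, SE 0.23, adjusted p = 1.20e-04) while the scramblase gene TMEM41B fell (-0.86, SE 0.10, adjusted p = 7.53e-12). ATG2A, the paralog of ATG2B, rose with PKR siRNA 2 (0.71, SE 0.12, adjusted p = 1.63e-06) and fell at 800 nM (-1.14, SE 0.20, adjusted p = 5.87e-06), where UVRAG, a BECN1 partner, rose (0.64, SE 0.15, adjusted p = 3.58e-04).

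All 14 genes of fusion with the lysosome were tested. Of these, 1 rose and 2 fell with PKR siRNA 1, 0 rose and 2 fell with PKR siRNA 2, 2 rose and 1 fell at 400 nM and 2 rose and 3 fell at 800 nM, with medians of 0.01, 0.00, 0.15 and 0.13. The autophagosomal SNARE gene STX17 fell with PKR siRNA 1 (-1.49, SE 0.23, adjusted p = 1.38e-07) and at 800 nM (-0.90, SE 0.30, adjusted p = 0.0108). With PKR siRNA 2 the STX17 difference was -0.04 (SE 0.23, adjusted p = 0.918), and at 400 nM it was -0.02 (SE 0.30, adjusted p = 0.976). STX17 was higher in PKR siRNA 2 than in PKR siRNA 1 (1.45, SE 0.23, adjusted p = 1.46e-07). The lysosomal SNARE gene VAMP8 fell with PKR siRNA 1 (-0.76, SE 0.12, adjusted p = 1.25e-07) and PKR siRNA 2 (-1.24, SE 0.12, adjusted p = 6.93e-15). PLEKHM1, an adaptor of late endosomes, rose with PKR siRNA 1 (0.96, SE 0.15, adjusted p = 1.63e-07), at 400 nM (1.29, SE 0.22, adjusted p = 4.85e-06) and at 800 nM (1.07, SE 0.22, adjusted p = 5.21e-05), and fell with PKR siRNA 2 (-0.67, SE 0.15, adjusted p = 1.47e-04). The tether subunit gene VPS39 fell at both doses, by a log2 change of -0.75 (SE 0.14, adjusted p = 4.54e-05) and -1.30 (SE 0.14, adjusted p = 3.25e-11).

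Of 18 genes of mTORC1 and AMPK control, which act on ULK1, 16 were tested in the siRNA run and 17 in the C16 run. Of these, 2 rose and 0 fell with PKR siRNA 1, 2 rose and 3 fell with PKR siRNA 2, 1 rose and 0 fell at 400 nM and 3 rose and 3 fell at 800 nM, with medians of -0.09, 0.03, 0.00 and -0.13. SESN2, an inhibitor of mTORC1, rose with PKR siRNA 1 (0.95, SE 0.12, adjusted p = 4.41e-10), at 400 nM (1.32, SE 0.13, adjusted p = 4.28e-13) and at 800 nM (1.05, SE 0.13, adjusted p = 3.50e-10), and fell with PKR siRNA 2 (-0.61, SE 0.12, adjusted p = 1.61e-05). DDIT4, another inhibitor of mTORC1, rose with both siRNAs, by 0.80 (SE 0.10, adjusted p = 2.11e-10) and 1.82 (SE 0.10, adjusted p = 4.34e-27), and fell at 800 nM (-1.11, SE 0.10, adjusted p = 1.24e-13). The AMPK catalytic subunit genes PRKAA1 (-1.32, SE 0.11, adjusted p = 8.68e-18) and PRKAA2 (-1.28, SE 0.14, adjusted p = 3.83e-12) fell with PKR siRNA 2, and PRKAA2 rose at 800 nM (1.25, SE 0.17, adjusted p = 7.34e-09). DEPTOR, an mTOR inhibitor, fell at 800 nM (-1.78, SE 0.31, adjusted p = 2.49e-06).

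Of 11 transcription factors and regulators known to act on autophagy genes, 9 were tested. With PKR siRNA 1, 3 rose and 1 fell, and 2 rose and 0 fell in each other comparison with a control, with medians of 0.32, 0.12, 0.33 and 0.16 in the same order. ATF4, which phosphorylated eIF2α lets cells translate, rose with PKR siRNA 1 (1.16, SE 0.07, adjusted p = 2.22e-23), with PKR siRNA 2 (0.81, SE 0.07, adjusted p = 6.47e-16) and at 400 nM (0.70, SE 0.08, adjusted p = 8.77e-10), and at 800 nM its difference was 0.16 (95% interval -0.01 to 0.32, adjusted p = 0.115). DDIT3, also known as CHOP and a target of ATF4, rose in all 4 comparisons with a control, by 0.72 (SE 0.13, adjusted p = 7.15e-06), 0.83 (SE 0.13, adjusted p = 2.57e-07), 1.05 (SE 0.15, adjusted p = 1.51e-07) and 0.80 (SE 0.15, adjusted p = 1.83e-05). MITF, of the TFEB family, fell with PKR siRNA 1 (-0.78, SE 0.18, adjusted p = 1.93e-04).

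**Figure D5:**
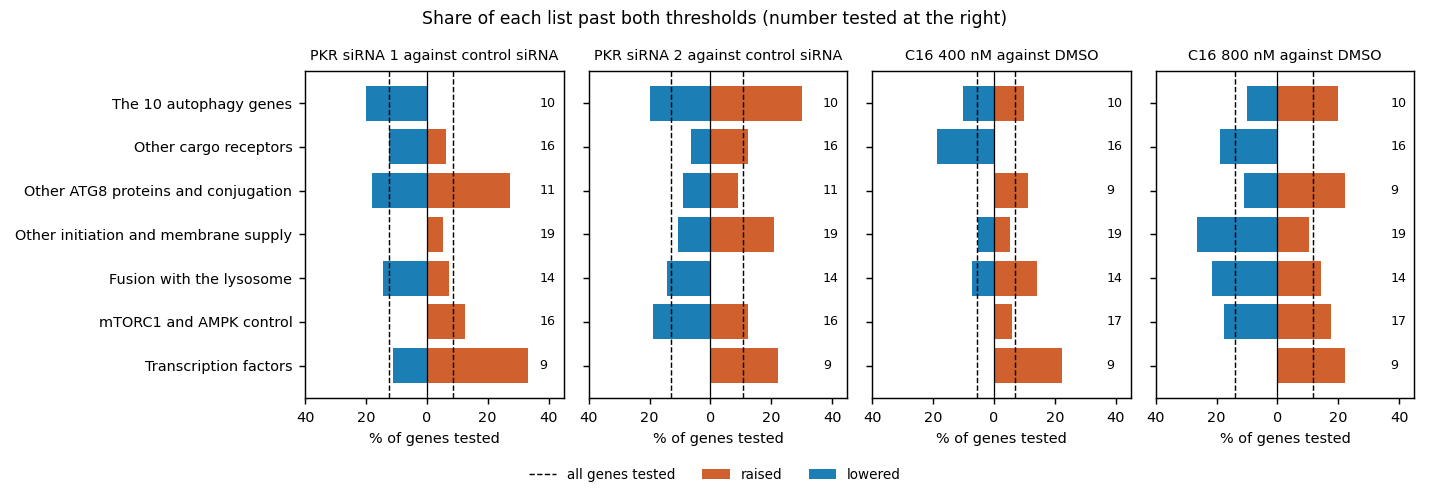
Share of the tested genes of each list that rose (right of 0) or fell (left of 0) past both limits (x axis, % of genes tested, number tested at the right), in the 4 comparisons with a control. Dashed lines mark the share of all genes tested in that direction. The bar of the 10 genes passes both of them for PKR siRNA 2, where 3 rose and 2 fell. It also passes both at 400 nM, where 1 rose and 1 fell, so a single gene is enough to pass a line there.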

How the data were processed

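RNA sequencing covered 18 PANC-1 libraries, 3 in each of 6 groups, with groups and replicate numbers taken from the labels. Libraries were made with a directional poly(A) kit. The authors mapped reads to hg38 with TopHat, counted them with featureCounts and normalized each run with TCC by TMM, and the deposited values are these normalized counts, a signal per gene with no filter on low values. The gene annotation and strand setting are not given in the sources used here. Dividing the deposited signal by what 1 read is worth gave whole numbers, within 0.01, for 100.0% of values, so reads were recovered for edgeR and DESeq2. In the first libraries of PKR siRNA 2 and C16 800 nM that value lies near 1, so wholeness is hard to tell from rounding there. Depth (894145 to 1873906 reads) limits the precision of low genes. The 18 replicate pairs differed by more than sampling noise (chi-square per degree of freedom 1.03 to 1.63), so none were merged.

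Genes whose normalized counts averaged at least 10 over the 9 libraries of a run were tested with limma 3.58.1 in R 4.3.3 (lmFit, eBayes with a trend, two-sided) on log2(normalized count + 1), which understates changes of low genes. The 2 thresholds were a Benjamini-Hochberg adjusted p of 0.05 over all genes tested and a fold change of 1.5, and all 9 libraries shared 1 estimate of the spread. An exact permutation test of 3 against 3 libraries cannot go below p = 0.1. The labels do not say whether replicates were separate cultures, so p-values measure the spread between libraries. Named genes were the 10 members, EIF2AK2, the largest rise and fall past the thresholds in each of 6 lists (PKR siRNA 1, PKR siRNA 2, C16 800 nM) and the 3 most similar genes for SQSTM1, GABARAPL1 and ULK1 among genes that averaged at least 50, of which 1 is not reported here. The members and lists were chosen with earlier results of these data known. Alternatives were pseudocounts of 0.5 and 5, no filter and a minimum mean of 30, median-of-ratios scaling, a replicate block, a fit without the third group, edgeR 4.0.16, DESeq2 1.42.0 and each library left out. Gene positions and exon lengths are those of the deposited tables on hg38, exons of GENCODE v44 served to trim promoters, and promoters are from RefSeq. The limma script was tested on simulated data. Protein sequences and siRNA seed matches were not analysed here.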

Additional observations from a re-analysis of the deposited data

Results flagged for a closer look

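The effects of the 2 siRNAs on control, which both target EIF2AK2, differed past both thresholds by the direct limma contrast for 4 of the 10 genes: BECN1 (1.33 on the log2 scale, PKR siRNA 2 minus PKR siRNA 1), GABARAPL1 (1.14), MAP1LC3B (0.67) and ATG5 (-0.70). The groups did not overlap for any of these genes, which also held for 60.6% of all genes tested. BECN1 was low in PKR siRNA 1 alone, GABARAPL1 and MAP1LC3B were high in PKR siRNA 2, and ATG5 lay on opposite sides of control. Such differences were common, at 31.7% of all genes tested.

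The effects of the 2 doses of C16 on DMSO differed for ULK1, at -0.86 on the log2 scale (800 nM minus 400 nM), where 5.09% of all genes tested differed. ULK1 lay above DMSO in 3 of 3 libraries at 400 nM and below it in 3 of 3 at 800 nM.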

How the results depend on the processing

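Of the 17 gene-by-comparison results past both thresholds, 13 kept that call under every alternative run, 4 lost it in some and 0 changed sign. Those 4 were MAP1LC3B at both C16 doses, ATG16L1 at 800 nM (0.56 also with a pseudocount of 5) and ATG5 between the siRNAs. The number of the 10 genes past both thresholds was 2 for PKR siRNA 1 (2 to 3 with a library left out). For PKR siRNA 2 it was 5 (5 to 7 with a library left out, 4 to 5 under the other alternatives). It was 2 at 400 nM (1 to 2 with a library left out) and 3 at 800 nM (1 to 3, with 1 without the third DMSO or the first 800 nM library). Between the doses it was 1 (1 to 2, with 2 without the third 800 nM library, where GABARAPL2 also passed at 0.61). Between the siRNAs it was 4 (3 to 5). The other pathway genes past both thresholds between the doses numbered 10 by limma, 9 by edgeR and 3 by DESeq2, and the cause was not tested. The share of all genes that passed by edgeR or DESeq2 was not counted. Of the 43 results not past both thresholds, 10 changed sign. With libraries left out these ranged, for PKR siRNA 1, from -0.05 to 0.03 (NBR1) and -0.06 to 0.04 (MAP1LC3B). At 400 nM they ranged from -0.06 to 0.54 (WIPI1) and -0.09 to 0.17 (ATG5). At 800 nM they ranged from -0.06 to 0.09 (GABARAPL1), -0.18 to 0.18 (GABARAPL2), -0.10 to 0.06 (BECN1) and -0.04 to 0.50 (WIPI1). Between the doses they ranged from -0.07 to 0.03 (MAP1LC3B) and -0.32 to 0.31 (WIPI1). MAP1LC3B with PKR siRNA 1 was -0.00 by edgeR, and BECN1 at 800 nM was -0.01 by edgeR and -0.01 by DESeq2. At a minimum mean of 30 WIPI1 was not tested in either run, nor GABARAPL1 in the C16 run. Same-numbered libraries did not deviate together (r of deviations from group means -0.03 to 0.03 in the siRNA run, -0.05 to 0.02 in the C16 run). A small shared effect could go unseen at this depth, so whether the numbers pair samples is not settled. With the replicate number as a block, 2, 5 and 4 of the 10 genes passed for PKR siRNA 1, PKR siRNA 2 and their difference, and 2, 3 and 1 for 400 nM, 800 nM and their difference, the counts without it. With 10 to 34 reads per library, counting error limits WIPI1 most among the 10 genes. Named pathway genes such as MAP1LC3A, ATG16L2, CCPG1, ATG2B, STX17 and DEPTOR had reads as low or lower in some groups.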
